A study of Mus musculus with 10 samples.

Results

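The genes for the enzymes that write and remove DNA methylation were described in mouse embryonic stem cells (ESCs) and in epiblast-like cells (EpiLCs) made from them. They were chosen by symbol, as Dnmt1, Dnmt3a, Dnmt3b, Dnmt3l, Uhrf1, Tet1, Tet2 and Tet3, and all 8 were found among the 22867 gene symbols measured by RNA sequencing. The study profiled the change of ESCs into EpiLCs and the effect of loss and overexpression of Otx2, a homeobox transcription factor gene, in 10 libraries of cells of 129SV origin. EpiLC libraries numbered 1 from Otx2-/- cells, 1 from the R1 line with 20 ng/ml activin A, 1 from R1 without it and 1 from the E14 line, all after 48 h in N2B27 medium with knockout serum replacement and bFGF. The labels do not say whether the Otx2-/- and E14 EpiLCs had activin A. ESC libraries, grown in N2B27 medium with LIF and inhibitors of MEK (0.8 µM PD0325901) and GSK3 (3.3 µM CHIR99021), came from Otx2-/- cells with a doxycycline-inducible (tetON) Otx2 transgene with doxycycline (dox) and without it, from Otx2-/- cells, from R1 (2 replicates) and from E14. Both tetON libraries carry the Otx2 deletion. The sources used here give neither the dose and duration of dox nor the deleted part of Otx2, the parent line of the Otx2-/- cells or whether they are 1 clone.

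DNA methylation in mammals is set on cytosines of CpG dinucleotides. Dnmt3a and Dnmt3b are the de novo methyltransferases, and Dnmt3l is a partner without catalytic activity that stimulates them. Dnmt1 copies the mark to the new strand after replication, and Uhrf1 brings Dnmt1 to hemimethylated sites. Tet1, Tet2 and Tet3 are dioxygenases that oxidise 5-methylcytosine on the way to its removal. ESCs held with MEK and GSK3 inhibitors are known for low DNA methylation, and the epiblast gains methylation around implantation. Transcript levels only were measured here, and neither DNA methylation nor protein.

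Promoters of 4 of these genes are shown because Dnmt3a and Dnmt3b rose together in EpiLC, Dnmt3l, their partner, did not follow them, and Tet2 fell. Each window is RefSeq sequence on GRCm38.p6, another build than the mm9 of the expression tables, and holds 250 bases before and 50 bases after an annotated start, read 5′ to 3′ on the strand of the gene. For a gene with several starts the window with the most CpGs is given. Capitals mark the GC box GGGCGG or its reverse complement CCGCCC. The windows lie at chr12:3806910-3807209 on the plus strand (Dnmt3a), chr2:153649199-153649498 on the plus strand (Dnmt3b), chr10:78042037-78042336 on the plus strand (Dnmt3l) and chr3:133544341-133544640 on the minus strand (Tet2).
Dnmt3a: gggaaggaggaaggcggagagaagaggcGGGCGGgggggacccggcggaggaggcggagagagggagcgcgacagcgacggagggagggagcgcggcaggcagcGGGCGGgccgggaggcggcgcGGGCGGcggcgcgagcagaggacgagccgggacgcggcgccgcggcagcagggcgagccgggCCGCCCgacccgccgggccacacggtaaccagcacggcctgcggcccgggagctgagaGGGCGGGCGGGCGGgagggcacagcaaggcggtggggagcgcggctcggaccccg
Dnmt3b: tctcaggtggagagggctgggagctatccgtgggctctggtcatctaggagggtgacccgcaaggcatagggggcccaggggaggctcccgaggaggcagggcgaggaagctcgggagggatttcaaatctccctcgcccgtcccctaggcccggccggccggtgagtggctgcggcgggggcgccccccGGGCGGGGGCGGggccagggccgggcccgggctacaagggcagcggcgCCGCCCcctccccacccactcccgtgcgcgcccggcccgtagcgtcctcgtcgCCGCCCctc
Dnmt3l: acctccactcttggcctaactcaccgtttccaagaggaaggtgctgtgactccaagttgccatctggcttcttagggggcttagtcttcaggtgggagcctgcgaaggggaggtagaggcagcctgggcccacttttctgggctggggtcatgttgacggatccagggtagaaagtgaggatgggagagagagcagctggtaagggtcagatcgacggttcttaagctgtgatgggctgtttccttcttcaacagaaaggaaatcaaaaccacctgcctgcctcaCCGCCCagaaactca
Tet2: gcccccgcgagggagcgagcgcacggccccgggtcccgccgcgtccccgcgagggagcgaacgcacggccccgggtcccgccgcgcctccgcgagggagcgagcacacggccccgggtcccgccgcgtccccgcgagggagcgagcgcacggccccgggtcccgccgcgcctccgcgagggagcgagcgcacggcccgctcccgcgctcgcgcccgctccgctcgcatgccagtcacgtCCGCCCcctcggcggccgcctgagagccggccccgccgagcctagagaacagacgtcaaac
The Tet2 window held 57 CpGs, and 99.8% of the 32851 promoter windows of 27025 mouse genes held fewer. The Dnmt3a window held 47 CpGs (98.6% of windows had fewer) and the Dnmt3b window 30 (88.3%), whereas the Dnmt3l window held 6 (43.6%). Windows at the other annotated starts held 46 and 18 CpGs in Dnmt3a (98.4% and 70.3%) and 4 and 3 in Dnmt3l (31.4% and 23.3%). The expression values are per gene, so they do not tell which start was in use. Over all windows the median was 7 CpGs and the quartiles were 3 and 20. Among the other genes, the window with the most CpGs held 33 in Dnmt1, 33 in Uhrf1, 22 in Tet3 and 17 in Tet1. GGGCGG, on either strand, was present in 12 of the 15 windows of the 8 genes and in 35.7% of all windows. TAATCC, the core motif bound by Otx2 and related homeodomain proteins, was searched on both strands. It was present in 0 of these 15 windows and in 7.06% of all windows. With no TAATCC match, only GGGCGG matches could overlap one another in these windows. A match is a description of the sequence alone.

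Approximate depth lay between 6.55M fragments in E14 EpiLC and 20.6M in R1 ESC replicate 2. It was taken from the lower quartile of olfactory receptor values above 0, read as a single fragment. That rests on 53 to 124 of these genes a library, so it is crude. Values are FPKM, fragments scaled to transcript length and sequencing depth, so levels of different genes can be set side by side per length. Of 8570 genes with a median of at least 5 FPKM, 144 were listed at exactly 0 in some library. Otx2 stood at 15.8 FPKM in Otx2-/- EpiLC, against 39.9 to 151 FPKM in the 3 R1 and E14 EpiLC libraries, and at 7.85 FPKM in Otx2-/- ESC, against 3.96 to 9.09 FPKM in R1 and E14 ESC. Since the deleted part is not given, a value over the whole gene does not check the deletion. In the tetON cells Otx2 was at 1059 FPKM with dox and 45.8 FPKM without. Markers followed the labelled states: in R1 and E14, 5 of 5 measured naive ESC markers fell in EpiLC, among them Klf4 (0.944 ± 0.127 FPKM in EpiLC and 87.7 ± 13.7 FPKM in ESC, SD, n = 3 each), and 3 of 3 epiblast markers rose, among them Fgf5 (31.5 ± 3.83 FPKM in EpiLC and 0.655 ± 0.134 FPKM in ESC). Summed naive markers were at 46.8 to 71.4 FPKM over all 4 EpiLC libraries, 386 FPKM with dox and 863 to 1032 FPKM over the 5 ESC libraries without dox. Summed markers of fibroblasts, primitive endoderm, neural cells, mesoderm and trophoblast stayed at or under 12.2 FPKM in these libraries. The dox library had the highest sums for primitive endoderm (4.84 FPKM) and trophoblast (3.30 FPKM). It had the lowest for neural cells (1.11 FPKM) and mesoderm (1.90 FPKM), and was inside the range for fibroblasts.

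**Figure D1:**
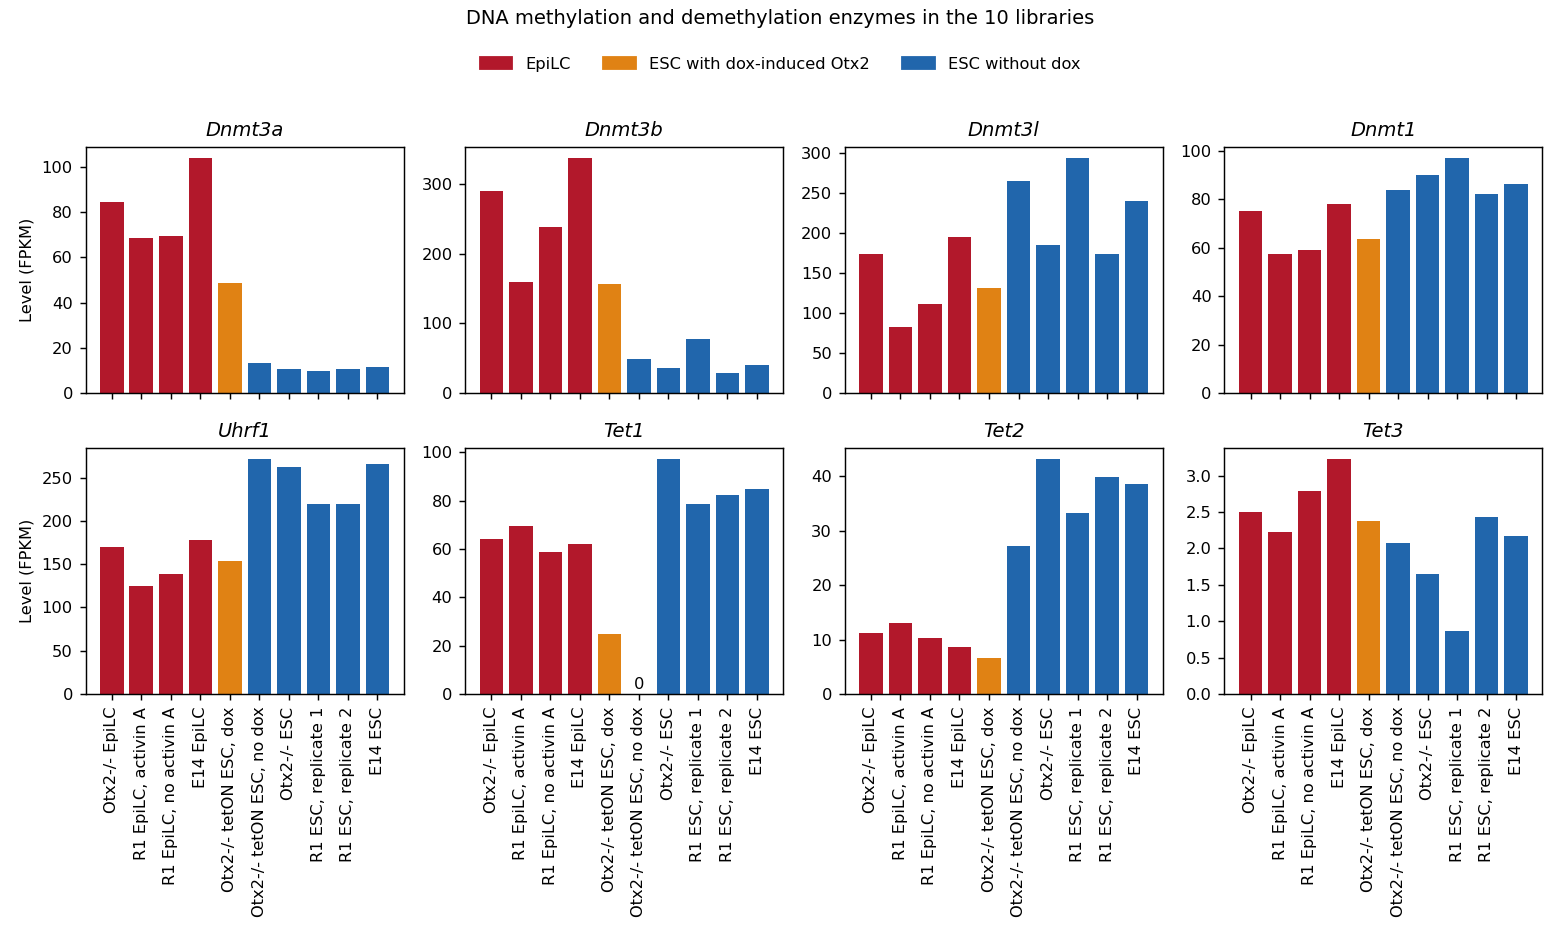
Level (FPKM, linear axes that start at 0) of each of the 8 genes in each of the 10 libraries, 1 bar per library, red for EpiLC, orange for ESC with dox and blue for ESC without dox. Dnmt3a and Dnmt3b are high in all 4 EpiLC libraries and with dox, Tet2 is low there, and the 0 above the Tet1 axis marks the library in which that gene was listed at 0.

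The differentiation of R1 and E14 cells was compared over 3 EpiLC and 3 ESC libraries. The de novo methyltransferase genes Dnmt3a and Dnmt3b rose in EpiLC, and Tet2 and Uhrf1 fell. Dnmt1, Dnmt3l, Tet1 and Tet3 did not pass the test. These were 4 of the 8 genes, 2 in each direction, in limma's moderated test on log2(FPKM + 1) with Benjamini-Hochberg adjustment at 0.05 over all 12244 genes that averaged 1 FPKM or more, where 20.3% of all genes were called, 9.73% higher and 10.6% lower. The median change was -0.41 over the 8 genes and -0.09 over all genes tested, both on the log2 scale. At an unadjusted p under 0.05, 7 of the 8 genes passed, beside 36.8% of all genes. The p-values measure the spread among 3 libraries a group that is left after a term for line. Activin A, which differs between the R1 EpiLC libraries, stays in that spread. Fewer cells of a type and less RNA per cell cannot be told apart in bulk samples.

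Dnmt3a, on chromosome 12 at 3806979 to 3914443 (mm9), was at 69.4 FPKM in R1 EpiLC without activin A, 68.4 FPKM in R1 EpiLC with it and 104 FPKM in E14 EpiLC, against 9.63 and 10.5 FPKM in R1 ESC (2 replicates) and 11.7 FPKM in E14 ESC. All EpiLC values lay well above all ESC values, and the spread among ESC libraries was small. The rise was 2.79 in log2(FPKM + 1) (SE 0.14, 95% interval 2.43 to 3.14, limma adjusted p = 0.00141). Dnmt3b, on chromosome 2 at 153475189 to 153513466, was at 239 FPKM in R1 EpiLC without activin A, 159 FPKM in R1 EpiLC with it and 337 FPKM in E14 EpiLC, against 77.1 and 28.6 FPKM in R1 ESC (2 replicates) and 39.7 FPKM in E14 ESC. The groups did not overlap, but the R1 ESC replicates stood apart from each other. Its rise of 2.37 (SE 0.44, 95% interval 1.26 to 3.48, limma adjusted p = 0.0213) was less precise than that of Dnmt3a. Without R1 ESC replicate 1 the rise was 2.87 with an adjusted p of 0.00333. Leaving out any other single library gave adjusted p-values between 0.0558 and 0.106, which ends the call. The fits without an E14 library rest on R1 alone, since the line term takes up the E14 library that remains. Their rise was 2.03 whichever E14 library was left out.

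Dnmt3l, the catalytically inactive partner, on chromosome 10 at 77492775 to 77526360, did not follow the de novo enzymes. It was at 111 FPKM in R1 EpiLC without activin A, 82.7 FPKM in R1 EpiLC with it and 195 FPKM in E14 EpiLC, against 293 and 174 FPKM in R1 ESC (2 replicates) and 241 FPKM in E14 ESC. E14 EpiLC lay above R1 ESC replicate 2, so the groups overlapped. The difference of -0.92 (SE 0.31, 95% interval -1.69 to -0.15) had a limma adjusted p of 0.0933.

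Of the maintenance pair, Uhrf1, on chromosome 17 at 56442759 to 56462909, was the more abundant. It was at 139 FPKM in R1 EpiLC without activin A, 124 FPKM in R1 EpiLC with it and 177 FPKM in E14 EpiLC, against 220 and 219 FPKM in R1 ESC (2 replicates) and 266 FPKM in E14 ESC. Every EpiLC value lay below every ESC value. Uhrf1 fell by 0.68 in log2(FPKM + 1) (SE 0.13, 95% interval -1.02 to -0.35, limma adjusted p = 0.0239). The call was lost under quantile scaling (-0.49, adjusted p = 0.0638) and on leaving out any single library other than R1 ESC replicate 1 (adjusted p between 0.0599 and 0.154). As for Dnmt3b, the fits without an E14 library rest on R1 alone (-0.73 in both). Dnmt1, on chromosome 9 at 20711649 to 20764332, was at 58.9 FPKM in R1 EpiLC without activin A, 57.4 FPKM in R1 EpiLC with it and 78.0 FPKM in E14 EpiLC, against 96.9 and 82.0 FPKM in R1 ESC (2 replicates) and 86.5 FPKM in E14 ESC. The EpiLC values were again all below the ESC values, though E14 EpiLC was close to R1 ESC replicate 2. The difference of -0.45 (SE 0.16, 95% interval -0.86 to -0.05) had a limma adjusted p of 0.107.

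The Tet genes differed from one another. Tet2, on chromosome 3 at 133126640 to 133207354, was at 10.3 FPKM in R1 EpiLC without activin A, 13.0 FPKM in R1 EpiLC with it and 8.71 FPKM in E14 EpiLC, against 33.3 and 39.9 FPKM in R1 ESC (2 replicates) and 38.6 FPKM in E14 ESC. The gap between the groups was wider than the spread within either. Tet2 fell by 1.72 in log2(FPKM + 1) (SE 0.18, 95% interval -2.17 to -1.28, limma adjusted p = 0.00502). Tet1, on chromosome 10 at 62267317 to 62342762, was at 58.6 FPKM in R1 EpiLC without activin A, 69.3 FPKM in R1 EpiLC with it and 61.9 FPKM in E14 EpiLC, against 78.8 and 82.3 FPKM in R1 ESC (2 replicates) and 84.7 FPKM in E14 ESC. Its EpiLC values were all below its ESC values. The difference of -0.37 (SE 0.14, 95% interval -0.71 to -0.03) had a limma adjusted p of 0.113, and passed in the fit of 8 libraries that adds the Otx2-/- pair (-0.43, adjusted p = 0.0281).

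Tet3, on chromosome 6 at 83312367 to 83391672, was the least abundant of the 8 genes in these 6 libraries. It ranged between 2.22 and 3.22 FPKM in the EpiLC libraries and between 0.859 and 2.44 FPKM in the ESC libraries, and the groups overlapped. The difference was 0.45 (SE 0.27, 95% interval -0.22 to 1.12, limma adjusted p = 0.281). Counted by range alone, 2 of the 8 genes lay wholly higher in EpiLC (Dnmt3a and Dnmt3b) and 4 wholly lower (Dnmt1, Tet1, Tet2 and Uhrf1), where 45.2% of all genes tested did not overlap, 19.7% higher and 25.5% lower.

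The balance within the de novo group was opposite in the 2 states. The FPKM of Dnmt3l over the sum of Dnmt3a and Dnmt3b was 0.467 in Otx2-/- EpiLC, 0.363 in R1 EpiLC with activin A, 0.360 in R1 EpiLC without it and 0.442 in E14 EpiLC, against 3.94 in Otx2-/- ESC, 3.38 and 4.44 in R1 ESC (2 replicates) and 4.68 in E14 ESC. The partner was thus the lower in every EpiLC library and the higher in every ESC library. The tetON cells had ratios of 0.638 with dox and 4.28 without. Dnmt3b exceeded Dnmt3a by a like factor in both states, with ratios of 2.33 to 3.44 over the 4 EpiLC libraries, 3.22 with dox and 2.73 to 3.63 over 4 of the 5 ESC libraries without dox. R1 ESC replicate 1, with a ratio of 8, was the exception.

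The ratio of Tet1 to Tet2 was 5.31 to 7.11 over the 4 EpiLC libraries, 3.75 with dox and 2.06 to 2.36 over the 4 ESC libraries without dox in which Tet1 had a value. Dnmt3b was the most abundant of the 8 genes in every EpiLC library and with dox. In ESC without dox it was Uhrf1, except in R1 ESC replicate 1, where Dnmt3l was. In the order of levels, Uhrf1 and Dnmt3l did not differ beyond their spread in either state, with 147 ± 27.5 and 129 ± 58.3 FPKM in R1 and E14 EpiLC and 235 ± 26.7 and 236 ± 60.0 FPKM in R1 and E14 ESC (SD, n = 3 each). The same held for Dnmt1 and Tet1, at 64.8 ± 11.5 and 63.3 ± 5.51 FPKM in EpiLC and 88.5 ± 7.66 and 81.9 ± 2.96 FPKM in ESC.

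**Figure D2:**
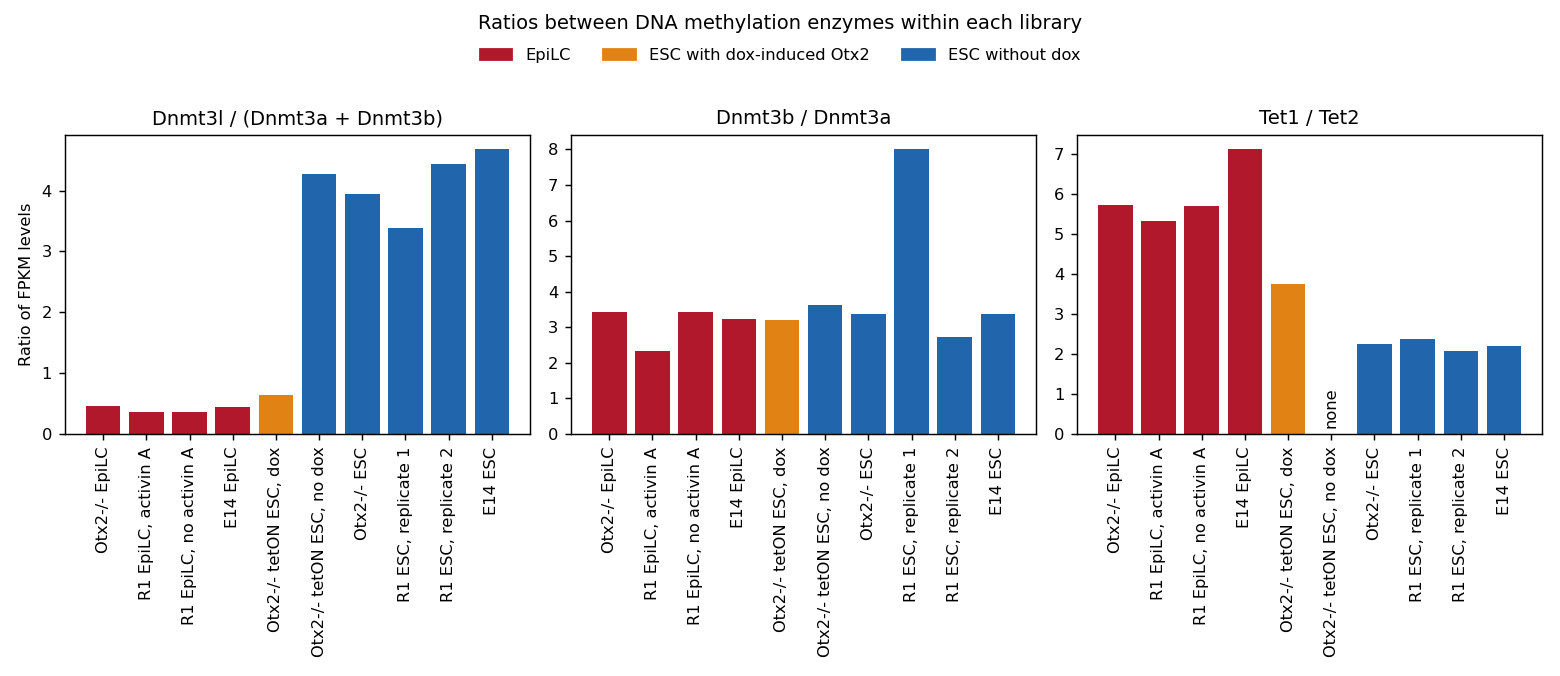
Ratio of FPKM levels within each of the 10 libraries (linear axes that start at 0, 1 bar per library) for Dnmt3l over the sum of Dnmt3a and Dnmt3b, Dnmt3b over Dnmt3a, and Tet1 over Tet2. The first ratio is under 1 in the 4 EpiLC libraries and with dox and over 3 in ESC without dox, and no Tet1 to Tet2 ratio is given where Tet1 was listed at 0.

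Loss of Otx2 was examined in 1 Otx2-/- EpiLC and 1 Otx2-/- ESC library, each set against the 3 libraries of R1 and E14 in that state, in a limma fit of 8 libraries. The fit assumes that the single Otx2-/- library varies as the R1 and E14 ones do, and line and genotype cannot be told apart. None of the 8 genes passed in EpiLC, where 0.163% of 12271 genes were called, or in ESC, where 0.139% were. By limma, 0 of the 8 also had an unadjusted p under 0.05 in either state, beside 3.59% of all genes in EpiLC and 1.08% in ESC. A count of 0 among 8 is near that background.

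Dnmt3a was at 84.5 FPKM in Otx2-/- EpiLC, against 80.5 ± 20.2 FPKM in R1 and E14 EpiLC (SD, n = 3), a difference of 0.10 (95% interval -0.57 to 0.76, limma adjusted p = 0.974). Dnmt3b was at 289 FPKM in Otx2-/- EpiLC, against 245 ± 88.9 FPKM in R1 and E14 EpiLC, a difference of 0.31 (95% interval -1.16 to 1.77). Both Otx2-/- values lay inside the range of the R1 and E14 EpiLC libraries. Dnmt3l was at 174 FPKM in Otx2-/- EpiLC, against 129 ± 58.3 FPKM in R1 and E14 EpiLC (0.52, 95% interval -0.70 to 1.74). Tet2 was at 11.2 FPKM in Otx2-/- EpiLC, against 10.7 ± 2.20 FPKM in R1 and E14 EpiLC (0.08, 95% interval -0.51 to 0.66). Tet1 was at 64.0 FPKM in Otx2-/- EpiLC, against 63.3 ± 5.51 FPKM in R1 and E14 EpiLC (0.02, 95% interval -0.38 to 0.42). For Tet1, Tet2 and Dnmt3a the intervals leave out a difference of 1 on the log2 scale, and for Dnmt3b and Dnmt3l they do not. The epiblast marker Fgf5 was at 5.18 FPKM in Otx2-/- EpiLC, against 31.5 ± 3.83 FPKM in R1 and E14 EpiLC, and fell by 2.39 (limma adjusted p = 0.0117, or 0.0527 without R1 EpiLC without activin A and 0.0546 without E14 ESC).

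In Otx2-/- ESC the differences of the 8 genes from R1 and E14 ESC lay between -0.31 (Dnmt3l, 95% interval -1.53 to 0.90) and 0.24 (Tet1, 95% interval -0.15 to 0.64), with a limma adjusted p of 1 for each. Tet1 at 97.1 FPKM and Tet2 at 43.1 FPKM in Otx2-/- ESC were each above all 3 R1 and E14 ESC values, and the other 6 genes were inside that range. The change on differentiation in Otx2-/- cells, minus that in R1 and E14, was tested as an interaction, and 0 of the 8 genes passed by limma, beside 0.277% of all genes. At an unadjusted limma p under 0.05 it was likewise 0 of the 8, beside 1.58% of all genes, and so near the background. That difference of changes was 0.08 for Dnmt3a (95% interval -0.87 to 1.02), 0.59 for Dnmt3b (95% interval -1.48 to 2.67), 0.83 for Dnmt3l (95% interval -0.89 to 2.55) and -0.13 for Tet2 (95% interval -0.96 to 0.70). Within Otx2-/- cells alone, Dnmt3a was at 84.5 FPKM in EpiLC and 10.7 FPKM in ESC, Dnmt3b at 289 FPKM in EpiLC and 36.2 FPKM in ESC, and Tet2 at 11.2 FPKM in EpiLC and 43.1 FPKM in ESC. These 3 of 7 genes that reached 5 FPKM were past 2-fold in this untested pair, 2 higher and 1 lower, where 15.2% of genes were, 6.86% higher and 8.30% lower. In the E14 pair, likewise 1 library against 1, the same count was 3 of 7 (Dnmt3a, Dnmt3b and Tet2), where 15.6% were, 6.83% higher and 8.77% lower.

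**Figure D3:**
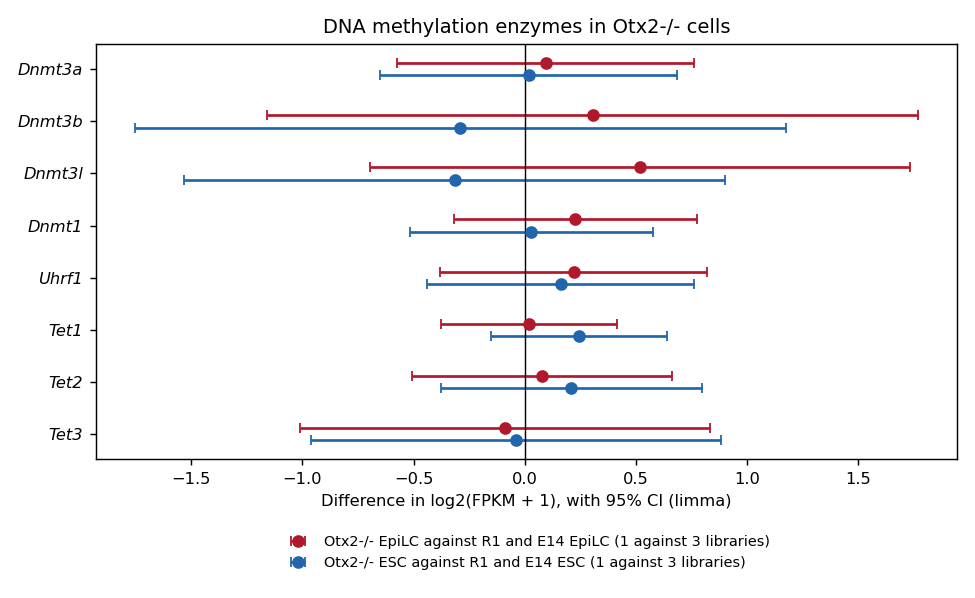
Difference of the 1 Otx2-/- library from the 3 libraries of R1 and E14 in that state, in log2(FPKM + 1), in EpiLC (red) and ESC (blue), with 95% intervals from limma. Every interval crosses 0, and those of Dnmt3b and Dnmt3l are the widest.

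Otx2 was induced with dox in ESC medium in Otx2-/- tetON cells, in 1 library with dox and 1 without, which gives no test. The dox library had higher Dnmt3a and Dnmt3b and lower Tet2 and Dnmt3l than the library without dox, each past 2-fold in (FPKM + 1). These are 4 of the 6 genes that reached 5 FPKM and had a value in both, 2 in each direction, where 11.6% of 9247 genes were past 2-fold, 6.25% higher and 5.33% lower. The median log2 ratio was -0.60 over these 6 genes and -0.06 over all 9247. The R1 ESC replicates, which share all labels, differed past 2-fold at 11.0% of genes, close to the share of the dox pair. Dnmt3b was among them, at 77.1 FPKM in replicate 1 and 28.6 FPKM in replicate 2. Dnmt3l was at 293 FPKM in replicate 1 and 174 FPKM in replicate 2. Of 5 naive markers, 3 were past 2-fold lower with dox. These were Klf4, at 22.8 FPKM with dox and 73.2 FPKM without, Esrrb (log2 ratio -2.10) and Zfp42 (-1.65). Tbx3 was lower by less (-0.97), and Tfcp2l1 was at 148 FPKM with dox and 126 FPKM without (0.23), inside the range of the 5 ESC libraries without dox. The shared pluripotency genes Pou5f1, at 440.1 FPKM with dox and 1088 FPKM without (-1.30), and Sox2, at 61.6 FPKM with dox and 202 FPKM without (-1.70), were also past 2-fold lower. In R1 and E14, Pou5f1 was at 534 ± 12.5 FPKM in EpiLC and 974 ± 38.4 FPKM in ESC (-0.87, limma adjusted p = 0.0147). Sox2 was at 101 ± 30.6 FPKM in EpiLC and 206 ± 43.8 FPKM in ESC there (-1.04, limma adjusted p = 0.0575). Of the epiblast markers, Fgf5 was at 3.63 FPKM with dox and 0.373 FPKM without, against 31.5 ± 3.83 FPKM in R1 and E14 EpiLC. Pou3f1 was at 6.01 FPKM with dox and 2.38 FPKM without, against 61.0 ± 16.6 FPKM there (SD, n = 3 each). Otx2 itself was the induced gene. The part of these markers in the enzyme values was not tested.

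Dnmt3a was at 48.9 FPKM with dox and 13.4 FPKM without (log2 ratio 1.80), and Dnmt3b at 157 FPKM with dox and 48.5 FPKM without (1.67). Both dox values were above all 5 ESC libraries without dox and below all 4 EpiLC libraries. Tet2 was at 6.57 FPKM with dox and 27.1 FPKM without (-1.89), the lowest Tet2 value of the 10 libraries. Dnmt3l was at 131 FPKM with dox and 265 FPKM without (-1.01, or -0.93 and so under 2-fold with quantile scaling). The maintenance genes were lower by less: Uhrf1 was at 154 FPKM with dox and 271 FPKM without (-0.81), and Dnmt1 at 63.7 FPKM with dox and 83.7 FPKM without (-0.39). Tet3 stayed under 5 FPKM in both, at 2.38 FPKM with dox and 2.07 FPKM without.

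Tet1 was listed at 0 in the library without dox, while all other libraries lay between 24.7 and 97.1 FPKM, so it carries no fold here. Its 24.7 FPKM with dox was the lowest of the 9 values above 0 and below the 58.6 FPKM of R1 EpiLC without activin A, the next one up. Set against the 5 ESC libraries without dox, the dox library was outside their range for 6 of the 8 genes, higher for Dnmt3a and Dnmt3b and lower for Dnmt1, Dnmt3l, Tet2 and Uhrf1. Tet3 was inside, and Tet1 was inside only through the value of 0. Of 9780 genes, 61.7% lay outside that range, 26.8% above it and 34.9% below. These are genes that reached 5 FPKM and were not listed at 0 though abundant, a rule that leaves out Tet1 and Tet3. The 6 enzyme genes that meet it all lay outside, in a library that differed in most genes. The dox library was also among the shallower ones, at about 9.16M fragments.

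**Figure D4:**
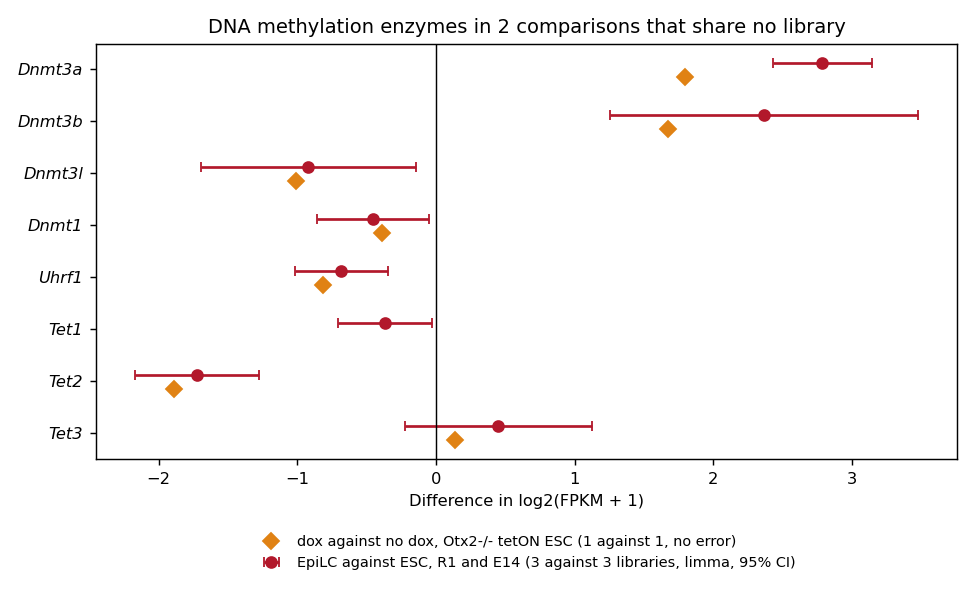
Difference in log2(FPKM + 1) of each gene for dox against no dox in Otx2-/- tetON ESC (orange diamonds, 1 library against 1, no error) and for EpiLC against ESC in R1 and E14 (red circles, 3 against 3 libraries, 95% intervals from limma). Dnmt3a and Dnmt3b lie right of 0 and Dnmt1, Dnmt3l, Tet2 and Uhrf1 left of 0 in both, and Tet1 has no diamond because it was listed at 0 without dox.

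The dox pair and the R1 and E14 comparison share no library, so their signs can be set side by side. All 6 genes with a usable dox ratio had the same sign in both, where 60.8% of 9141 genes did. Of genes called in the EpiLC comparison, the 4 of the 8 enzyme genes had the same sign with dox, beside 71.4% of 1749. The dox ratio of Dnmt3a (1.80) was below the 95% interval of its change in EpiLC (2.43 to 3.14). Those of Dnmt3b (1.67) and Tet2 (-1.89) were inside the intervals of their changes in EpiLC (1.26 to 3.48 for Dnmt3b, -2.17 to -1.28 for Tet2). Differences between these 2 comparisons were not tested.

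Without dox, the tetON cells had 45.8 FPKM of Otx2, against 7.85 FPKM in Otx2-/- ESC without the transgene. No enzyme gene was past 2-fold in this pair among the 6 that could be compared, where 2.23% of 8908 genes were. Tet2 was at 27.1 FPKM in tetON cells without dox and 43.1 FPKM in Otx2-/- ESC (log2 ratio -0.65). Dnmt3l was at 265 FPKM in tetON cells without dox and 185 FPKM in Otx2-/- ESC (0.51), and Dnmt3b at 48.5 FPKM in tetON cells without dox and 36.2 FPKM in Otx2-/- ESC (0.41). Activin A was varied in 1 R1 EpiLC library against 1, and 0 of the 7 genes that reached 5 FPKM were past 2-fold, where 1.84% of 8935 genes were. The widest ratios were those of Dnmt3b, at 159 FPKM with activin A and 239 FPKM without (-0.58), and Dnmt3l, at 82.7 FPKM with activin A and 111 FPKM without (-0.42). Dnmt3a was at 68.4 FPKM with activin A and 69.4 FPKM without. For scale, the R1 ESC replicates, which share all labels, had Dnmt3b at 77.1 FPKM in replicate 1 and 28.6 FPKM in replicate 2 (1.40), the only 1 of 7 enzyme genes past 2-fold, where 11.0% of 9095 genes were. Dnmt3l differed by 0.75 between these replicates and Dnmt3a by -0.11.

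Other genes of the pathway were read from 4 lists of 34 genes in all, which were drawn up with earlier results of these data known. In EpiLC of R1 and E14, 5 of the 34 rose, 6 fell and 23 did not pass by limma, beside 9.73% of all genes higher and 10.6% lower, and their median change was -0.21. On leaving out 1 library, 0 to 7 were called higher and 2 to 13 lower, the fewest without R1 EpiLC without activin A (0 and 2) and the most without R1 ESC replicate 1 (7 and 13), and of the 11 called genes only Prdm14 and Zfp57 kept their call under all 15 alternatives. The factors that target or protect methylation held the widest falls. Of these 11 genes, 1 rose and 4 fell. Prdm14, a naive-state repressor of the de novo methyltransferase genes, was at 1.26 FPKM in R1 EpiLC without activin A, 2.89 FPKM in R1 EpiLC with it and 0.779 FPKM in E14 EpiLC, against 14.5 and 23.2 FPKM in R1 ESC (2 replicates) and 20.5 FPKM in E14 ESC. It fell by 3.003 (SE 0.33, limma adjusted p = 0.00591). Zfp57, a zinc finger protein that guards imprints, was at 38.4 ± 5.27 FPKM in EpiLC and 221 ± 80.4 FPKM in ESC (SD, n = 3 each) and fell by 2.45 (SE 0.27, limma adjusted p = 0.00595). Setdb1, a histone H3 lysine 9 methyltransferase, fell by 0.81 (limma adjusted p = 0.0152) and Cxxc5, a CXXC zinc finger gene, by 0.74 (limma adjusted p = 0.0395). Dppa3, which protects the methylation of the maternal genome after fertilisation and can displace Uhrf1 from chromatin, rose to 6.42 ± 1.79 FPKM in EpiLC, against 2.60 ± 1.29 FPKM in ESC (1.07, SE 0.23, limma adjusted p = 0.03).

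Among the 10 genes of base excision repair and demethylation, 3 rose and none of the other 7 passed by limma in either direction. Over all genes tested, 9.73% were called higher and 10.6% lower. Gadd45g, a stress-response gene linked to demethylation, was at 13.7 ± 4.99 FPKM in EpiLC and 3.50 ± 0.509 FPKM in ESC (SD, n = 3 each; 1.64, SE 0.31, limma adjusted p = 0.021). Its relative Gadd45a was at 23.0 ± 0.802 FPKM in EpiLC and 9.63 ± 2.12 FPKM in ESC (1.19, limma adjusted p = 0.0107), and the DNA ligase gene Lig3 rose by 0.57 (limma adjusted p = 0.0334). Tdg, the glycosylase that removes the oxidised bases made by Tet enzymes, differed by 0.13 (95% interval -0.47 to 0.74, limma adjusted p = 0.713). Of the 8 readers of methylated CpG, Uhrf2, a relative of Uhrf1, rose, at 21.2 ± 2.69 FPKM in EpiLC and 11.8 ± 0.746 FPKM in ESC (0.79, limma adjusted p = 0.0211). Zbtb38 fell by 1.01 (limma adjusted p = 0.0434). Of the 5 genes for methyl donor and 2-oxoglutarate supply, Idh1, which makes the 2-oxoglutarate that Tet enzymes use, fell, at 30.9 ± 3.09 FPKM in EpiLC and 70.2 ± 14.9 FPKM in ESC (-1.14, limma adjusted p = 0.0176). With so few genes, the counts for readers and supply genes were near the shares over all genes.

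**Figure D5:**
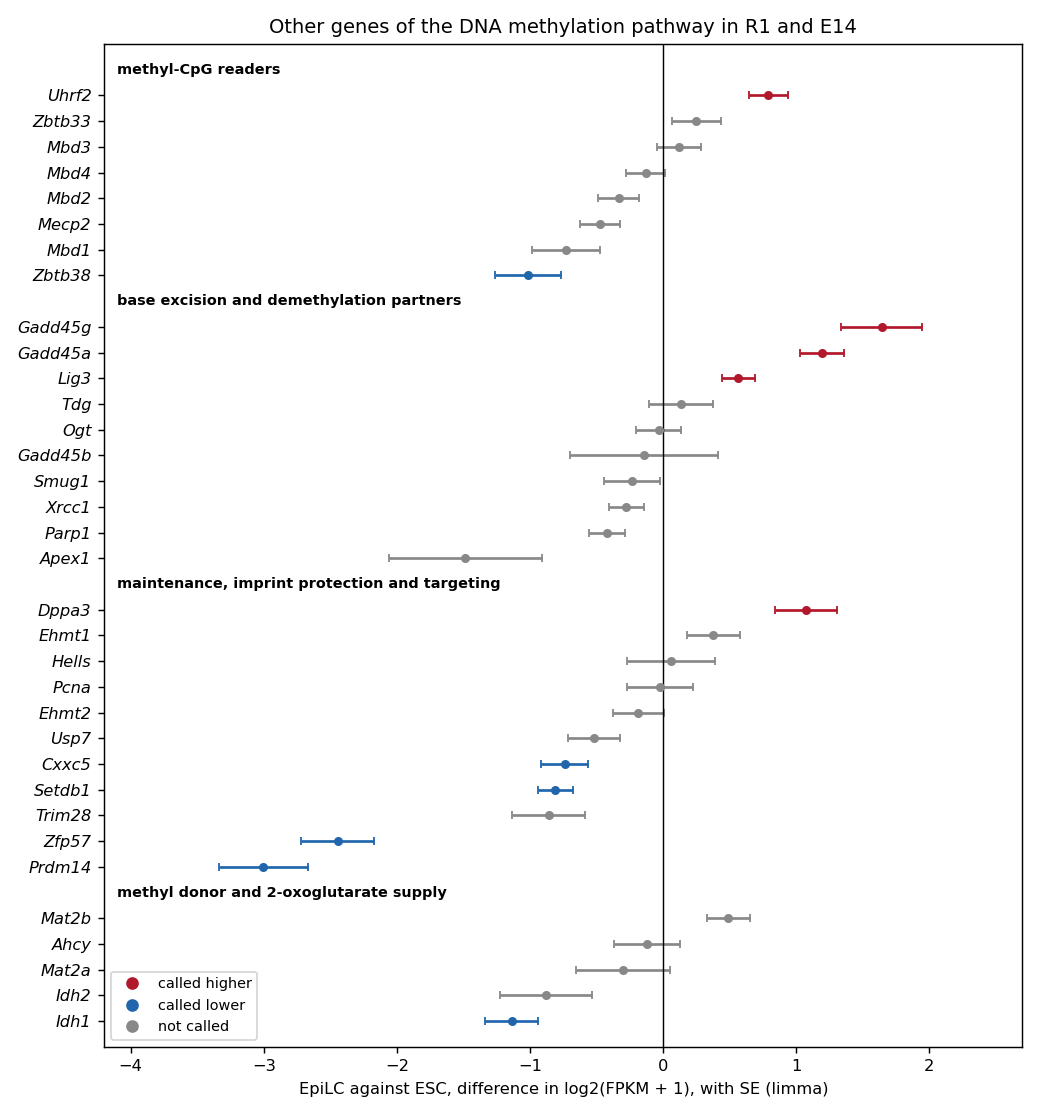
Difference between EpiLC and ESC of R1 and E14 in log2(FPKM + 1) with SE from limma (3 against 3 libraries) for the 34 other pathway genes, in 4 lists, each sorted by size. Red marks the 5 genes called higher, blue the 6 called lower and grey the 23 not called.

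None of the 34 passed by limma in Otx2-/- EpiLC, in Otx2-/- ESC or in the interaction, where 0.163%, 0.139% and 0.277% of all genes did. With dox, these genes did not all keep the direction they had in EpiLC. Prdm14 was at 20.7 FPKM with dox and 19.7 FPKM without (log2 ratio 0.07), inside the range of the 5 ESC libraries without dox. Any part of Prdm14 in the enzyme values was not tested. Dppa3 was at 68.1 FPKM with dox and 5.55 FPKM without (3.40), more than in any EpiLC library. Gadd45g was at 9.83 FPKM with dox and 2.95 FPKM without (1.46), and Gadd45a at 4.48 FPKM with dox and 10.7 FPKM without (-1.10), opposite to its rise in EpiLC. Idh1 was at 69.0 FPKM with dox and 76.8 FPKM without (-0.15).

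Genes with the most similar pattern were sought by Pearson's r of log2(FPKM + 1) over the 10 libraries, among 6601 genes with a range of at least 1 on that scale and no library at 0. These values are a description: the libraries fall into EpiLC and ESC, and genes that differ between these states share that contrast. Dnmt3l and Tet3 overlapped between the states in R1 and E14. Dnmt3a was most like Arap3 (0.99), Mmp25 (0.99) and Galnt3 (0.99), and Dnmt3b was most like Suv39h1 (0.98), Efnb2 (0.98) and AI661453 (0.98). Dnmt3l was most like Tcof1 (0.98), Bop1 (0.98) and Rcc2 (0.98), and Uhrf1 was most like Lasp1 (0.98), Ncam1 (0.97) and Zbtb39 (0.96). Tet2 was most like BC032203 (0.98), an entry that joins A730069N07Rik and Dlc1 (0.98), and Vps13d (0.97). Tet3 was most like Irak1bp1 (0.95), Ppap2c (0.94) and Pdxp (0.94). Dnmt1, whose range was under 1, and Tet1, with a library at 0, were left out.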

How the data were processed

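RNA from 10 cultures was selected with oligo-dT, primed with random hexamers and read on an Illumina instrument, per the labels' protocols. No strand-marking step is described, so overlapping genes on opposite strands share reads. The authors deposited FPKM per gene, from TopHat and Cufflinks on mm9, per the submitters' processing notes. The sources used here give no versions, annotation or settings.

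Each table held 23112 entries; 17 exact repeats were dropped and 228 entries were summed with another of the same symbol, leaving 22867. Sums lay between 585995 and 680016 FPKM a library. FPKM are not counts, so limma 3.58.1 (R 4.3.3) was run on log2(FPKM + 1) (eBayes with trend, two-sided, mean of at least 1 FPKM, Benjamini-Hochberg, threshold 0.05). A fold on this scale understates the change of low genes. The R1 and E14 fit had line as covariate over 6 libraries, and the Otx2-/- contrasts used 8. Scripts were tested on simulated data. Pairs of 1 library against 1 have no test: a gene counted at a log2 ratio of (FPKM + 1) of at least 1 in size with 5 FPKM in either library. A gene with a median of at least 5 FPKM listed at 0 carries no fold. Alternatives changed the pseudocount to 0.1, the filter to none or 5 FPKM, the scaling, the trend, the covariate and the libraries. The E14, Otx2-/- and R1 replicate pairs, the ratios and the ranges are descriptions.

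The 8 genes and all lists were chosen with earlier results of these data known. Genes named are the 8, Otx2, fixed markers, all called genes of the pathway lists, and the 3 most similar to each enzyme gene. The plan was at most 4 called genes a list, which the list of targeting and protecting factors exceeds. Tdg was picked after its values were seen. The labels speak of 2 biological replicates each of ESC and EpiLC culture; the titles number the R1 ESC pair as replicates and mark no EpiLC libraries as such.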

Additional observations from a re-analysis of the deposited data

How the results depend on the processing

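Dnmt3a (2.66 to 2.92) and Tet2 (-1.86 to -1.57) kept their call and direction in EpiLC against ESC under all 15 alternatives. Members called numbered 2 higher and 2 lower in the analysis as reported. With quantile scaling 1 was called lower, Tet2, and Uhrf1 lost its call (-0.49), and leaving out 1 library left 1 to 2 higher and 1 to 2 lower. Genes called there numbered 2484 as reported, 1644 with a filter at 5 FPKM, 3870 over 8 libraries and 398 to 4118 on leaving out 1 library: 398 without R1 EpiLC without activin A, 598 without R1 EpiLC with it, 773 without E14 EpiLC, 844 without E14 ESC and 4118 without R1 ESC replicate 1. Pathway genes called lower numbered 6 as reported and 11 over 8 libraries, and those called higher and lower ranged over 0 to 7 and 2 to 13 on leaving out 1 library, with Tdg between -0.13 and 0.35. The cause of these changes was not tested. Without either E14 library, the line term takes up the E14 library that remains, so those settings compare the R1 libraries alone. No alternative scaling moved the median of all genes by 0.1.

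Genes called in Otx2-/- ESC numbered 17 as reported, 34 with no filter, 5 at 5 FPKM and 20 to 26 on leaving out 1 library (26 without E14 EpiLC). In Otx2-/- EpiLC they numbered 20 as reported, 59 with no filter and 21 to 42 on leaving out 1 library (42 without E14 EpiLC). In the interaction they numbered 34 as reported, 55 with no filter and 11 at 5 FPKM. None of the 8 genes was called in these 3 under any alternative run, and small differences changed sign. Under quantile scaling the difference was -0.021 for Tet1 in Otx2-/- EpiLC, and -0.011 for Dnmt3a, 0.016 for Tet3 and -0.085 for Uhrf1 in the interaction. On leaving out 1 library it lay, in Otx2-/- ESC, between -0.022 and 0.097 for Dnmt1, -0.044 and 0.086 for Dnmt3a, -0.60 and 0.10 for Dnmt3b, and -0.31 and 0.13 for Tet3. In Otx2-/- EpiLC it lay between -0.0073 and 0.29 for Dnmt3a, -0.034 and 0.086 for Tet1, -0.047 and 0.22 for Tet2, and -0.19 and 0.000943 for Tet3. In the interaction it lay between -0.026 and 0.27 for Dnmt3a, -0.26 and 0.0096 for Tet2, -0.22 and 0.22 for Tet3, and -0.054 and 0.20 for Uhrf1. With dox, quantile scaling left 1 gene lower past 2-fold, Tet2, with Dnmt3l at -0.93.

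Line, which both states share, was a term of the fit as reported. Beyond line, no paired analysis was possible because the EpiLC libraries carry no replicate numbers. Tet3 was at 3.22 FPKM or less, and depth was lowest in E14 EpiLC, near 6.55M fragments. The effect of depth on the Tet3 values was not tested.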
